A study of Mus musculus with 7 samples.

Results

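The CXC chemokines are small proteins that direct white blood cells to sites of inflammation or through lymphoid tissue. Of the 22180 genes named by a single symbol on the arrays, 10 make up the set described here, namely Cxcl1, Cxcl2, Cxcl3, Cxcl5, Cxcl9, Cxcl10, Cxcl12, Cxcl13, Cxcl16 and Pf4. They were chosen by name, each was measured by 1 probe set, and all 10 were found. The RNA came from macrophages of the mouse colon during colitis, sorted from lamina propria cells, and each of the 7 samples was read on its own Affymetrix Mouse Gene 2.0 ST array. The 4 LysM+/cre samples came from Rictorfl/fl mice with 1 cre copy in the LysM locus, which is active in myeloid cells, macrophages and neutrophils included. The 3 LysM+/+ samples came from Rictorfl/fl mice with no cre. Rictor is needed to assemble mTORC2, a complex of the mTOR kinase, and there were no mice with cre and intact Rictor alleles. All mice drank 5% dextran sulphate sodium for 5 days to injure the colon, and plain water for the last 3 days. The gate kept CD45+ CD11b+ CD64+ MHCII+ cells and left out those with Ly6C. The labels give no age or sex and do not say whether a sample was 1 mouse or a pool, so p-values measure the spread between these samples.

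CXC chemokines act through G protein-coupled receptors on the cells they attract. Cxcl1, Cxcl2, Cxcl3 and Cxcl5 bind Cxcr2 and draw neutrophils, and macrophages make them after Toll-like receptor, IL-1 or TNF signals through NF-kB. Cxcl9 and Cxcl10 bind Cxcr3 on activated T cells and NK cells. Cxcl9 depends largely on interferon gamma, whereas Cxcl10 also responds to type I interferon and NF-kB. Cxcl12 is a stromal retention signal read by Cxcr4, Cxcl13 guides B cells through Cxcr5, and Cxcl16 is a membrane-bound ligand of Cxcr6. Pf4, platelet factor 4, is stored in platelets and is also transcribed by some tissue macrophages.

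The promoters of 5 inflammatory members are shown because their induction through NF-kB or interferon is well known. Of the 10 members, 8 had a promoter in the RefSeq table of GRCm38.p6, with 250 bases before the start of transcription and 50 after it. The NF-kB consensus, searched on both strands, matched in Cxcl1, Cxcl2, Cxcl3 and Cxcl10, against 8.46% of all 32851 promoters. In Cxcl1, Cxcl2 and Cxcl3 the matched letters were the same, GGGAATTTCC, which stood in 0.0883% of all promoters (29 of them). The 80-base stretches below lie on the plus strand, at chr5:90891154-90891233 for Cxcl1, chr5:90903782-90903861 for Cxcl2 and chr5:90786008-90786087 for Cxcl3. Capitals mark the overlapping matches on the 2 strands.
Cxcl1: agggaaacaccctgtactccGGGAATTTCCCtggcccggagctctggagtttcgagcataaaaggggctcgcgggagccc
Cxcl2: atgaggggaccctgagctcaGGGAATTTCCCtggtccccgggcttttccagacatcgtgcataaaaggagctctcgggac
Cxcl3: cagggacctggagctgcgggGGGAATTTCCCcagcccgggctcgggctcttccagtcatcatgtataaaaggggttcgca
The match began 71 bases before the start in Cxcl1, 97 in Cxcl2 and 73 in Cxcl3. Set base against base with no gaps, Cxcl1 and Cxcl2 shared 35 of 80 letters, as did Cxcl1 and Cxcl3, and Cxcl2 and Cxcl3 shared 29.

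Cxcl9 and Cxcl10, the interferon-induced pair, share a motif and differ in another. Both held the core of the interferon-stimulated response element, GAAANNGAA on either strand, which stood in 8.56% of all promoters. Cxcl10 also matched the NF-kB consensus at 2 places, and Cxcl9 did not match it. The STAT motif letters TTCNNNGAA, present in 8.3% of promoters, stood in no member's window. Both genes lie on the minus strand, and their sequences run 5′ to 3′ along the gene, at chr5:92328030-92328329 for Cxcl9 and chr5:92348840-92349139 for Cxcl10.
Cxcl9: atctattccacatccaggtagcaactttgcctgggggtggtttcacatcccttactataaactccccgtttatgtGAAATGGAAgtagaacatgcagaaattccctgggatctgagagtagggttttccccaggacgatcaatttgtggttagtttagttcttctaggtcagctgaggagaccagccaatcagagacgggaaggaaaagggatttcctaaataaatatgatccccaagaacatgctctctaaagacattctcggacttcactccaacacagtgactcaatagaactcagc
Cxcl10: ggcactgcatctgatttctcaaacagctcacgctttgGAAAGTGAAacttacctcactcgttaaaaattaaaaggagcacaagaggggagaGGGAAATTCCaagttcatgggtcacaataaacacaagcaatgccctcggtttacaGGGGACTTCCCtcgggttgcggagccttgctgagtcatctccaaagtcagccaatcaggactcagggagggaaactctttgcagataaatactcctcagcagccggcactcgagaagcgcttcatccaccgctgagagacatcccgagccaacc
Capitals mark the matches. The response element core began 175 bases before the start in Cxcl9 and 213 in Cxcl10, and the NF-kB matches of Cxcl10 began 159 and 104 bases before it. The motifs were chosen after the sequences had been seen, and the set was changed after other patterns had been tried. A match in this window is a description, and no match says only that these letters are not there.

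Several members are neighbours in the genome. In the RefSeq gene table Cxcl5, Ppbp, Pf4, Cxcl3, Cxcl15, Cxcl1 and Cxcl2 follow each other on chromosome 5 with no other protein-coding gene between them. Cxcl9, Cxcl10 and Cxcl13 lie further along it, Cxcl12 on chromosome 6 and Cxcl16 on chromosome 11. Cxcl1, Cxcl2 and Cxcl3 are related in sequence, and a probe for one may bind transcripts of another, so their values may not be independent.

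The arrays were alike as a whole. Their medians over all probe sets lay between 5.16 and 5.22 on the log2 scale, and their profiles correlated at 0.972 to 0.982 within genotypes and 0.968 to 0.977 between genotypes. Rictor, the floxed gene, averaged 7.88 ± 0.25 (SD, n = 4) on the LysM+/cre arrays and 7.76 ± 0.030 (SD, n = 3) on the LysM+/+ arrays (difference 0.12 ± 0.13 SE, limma adjusted p = 0.749), and LysM+/cre array 3 was highest at 8.25. Whether the Rictor probe set lies in the deleted part of the gene is unknown, so its signal does not check the labels. The macrophage markers C1qb, C1qa and Cd68 were bright, with genotype means between 11.94 and 12.52. The mean level of the 8 neutrophil markers was more uneven, at 5.81 to 8.27 on the LysM+/cre arrays and 5.21 to 7.16 on the LysM+/+ arrays. That of the 9 epithelial markers was 6.80 to 7.82 on the LysM+/cre arrays and 6.54 to 8.10 on the LysM+/+ arrays. Of these 9 markers, 8 had a lower mean with cre and 1 a higher one (median difference -0.19). Precision is limited by how few arrays there are, and in sorted bulk samples fewer cells of a type and less RNA per cell cannot be told apart.

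No CXC chemokine gene passed the test between the genotypes. Genes were compared with limma as LysM+/cre minus LysM+/+ on the log2 scale, with Benjamini-Hochberg adjustment over all 22180 genes, and 0 genes on the array passed an adjusted p of 0.05, which is 0% (smallest 0.195). Without adjustment, 2549 genes or 11.5% lay at p under 0.05, with 6.56% higher and 4.93% lower on the LysM+/cre arrays. Of the members, 1 of 10 (Cxcl10, lower) lay under that unadjusted threshold, a share of 10% that is close to the background. The arrays of the genotypes overlapped for every member, whereas they did not overlap for 8.79% of all genes. Of the members 5 had a higher mean with cre and 5 a lower one, and the median difference was -0.00030, against 0.0044 over all genes.

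Most members varied more between arrays than most genes, as did some genes of the other lists. For 9 of the 10 the SD over the 7 arrays lay above the 75th percentile of all genes, with Cxcl16 the exception at the 25.9th percentile. Cxcl2 and Cxcl5 lay just above that mark, at the 75.5th and 75.4th percentile. Cxcl3 (SD 1.03), Cxcl9 (0.97) and Cxcl13 (0.96) each lay above the 99th percentile. Of the other genes named here, S100a8, Ppbp and Ifnb1 also lay above it, whereas C1qb lay at the 28.1st percentile. Bright genes are common among the members. The mean level of 7 members lay above the 90th percentile of all genes and that of Cxcl5 below the median gene, at the 38.5th percentile. The SD percentiles were taken over all genes and not matched for level. The SD over the 7 arrays also holds any difference between the genotypes. The width of the intervals given below rests on the spread within the genotypes alone, as moderated by limma.

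**Figure D1:**
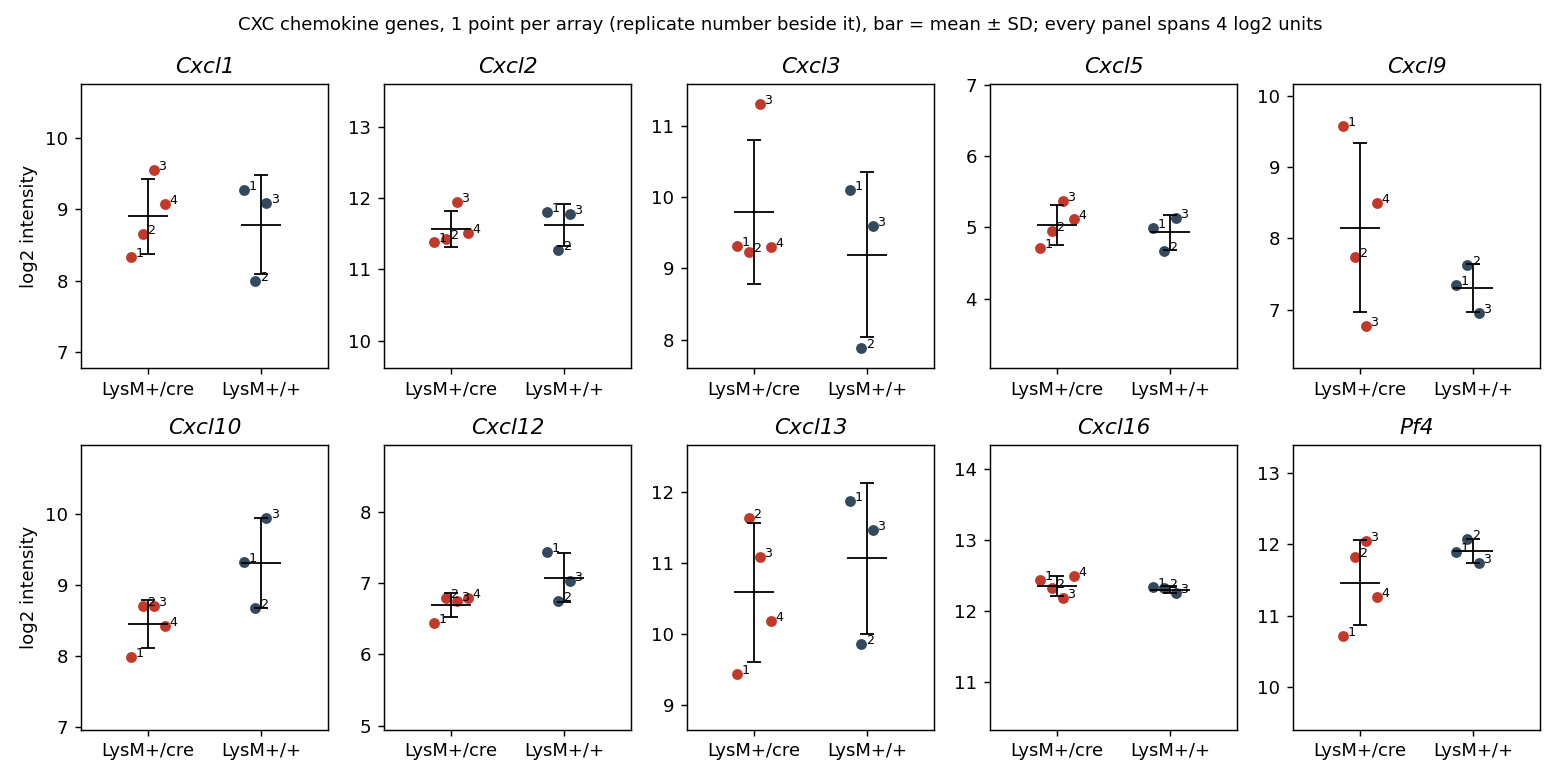
Log2 intensity of the 10 CXC chemokine genes, 1 point per array with its replicate number, LysM+/cre (4 arrays) left and LysM+/+ (3 arrays) right, and a bar for the mean ± SD. Every panel spans the same height in log2 units, so that the spread of Cxcl3, Cxcl9 and Cxcl13 can be set against the narrow band of Cxcl16, and the genotypes overlap in each panel.

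The neutrophil-attracting genes did not separate the genotypes, and all 4 were highest on LysM+/cre array 3 and lowest on LysM+/+ array 2. Cxcl1, a ligand of Cxcr2 also known as KC, had 8.32, 8.66, 9.55 and 9.07 on LysM+/cre arrays 1 to 4, against 9.27, 7.99 and 9.09 on LysM+/+ arrays 1 to 3. The LysM+/+ arrays thus held both the second highest and the lowest value. The difference was 0.12 ± 0.39 (SE, limma adjusted p = 0.923), with a 95% interval of -0.82 to 1.05. With LysM+/+ array 2 left out it became -0.28, and with LysM+/cre array 3 left out, -0.097.

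Cxcl2, or MIP-2, was bright on every array, at 11.38, 11.43, 11.94 and 11.51 on the LysM+/cre arrays, against 11.81, 11.28 and 11.77 on the LysM+/+ arrays. The genotypes spanned nearly the same range. Its difference was -0.054 ± 0.18 (SE, limma adjusted p = 0.925), and the 95% interval of -0.49 to 0.38 was the narrowest of the bright neutrophil-attracting genes. The sign turned without LysM+/+ array 1 (0.041), LysM+/+ array 3 (0.022) or LysM+/cre array 1 (0.0076).

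Cxcl3, a close relative of Cxcl2, had the widest spread of the 10 members. Its values were 9.32, 9.23, 11.31 and 9.30 on the LysM+/cre arrays, against 10.10, 7.88 and 9.60 on the LysM+/+ arrays. LysM+/cre array 3 stood far above the other 3 of its genotype, which lay within a narrow band, and LysM+/+ array 2 stood below all other arrays. The difference was 0.60 ± 0.70 (SE, limma adjusted p = 0.759), a 1.51-fold higher mean with a 95% interval of -1.07 to 2.27 on the log2 scale. Without LysM+/cre array 3 it was 0.089, and without LysM+/+ array 2 it was -0.060.

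Cxcl5, made mainly by epithelial cells and known as LIX in mice, was dim. It read 4.71, 4.95, 5.38 and 5.12 on the LysM+/cre arrays, against 4.99, 4.66 and 5.14 on the LysM+/+ arrays. The groups overlapped almost wholly, with a difference of 0.11 ± 0.18 (SE, limma adjusted p = 0.839) and a 95% interval of -0.32 to 0.54. Without LysM+/+ array 2 the difference was -0.027, and without LysM+/cre array 3 it was -0.0074. Array by array, Cxcl5 and Cxcl2 were the pair of members with the most similar deviations from their own means, at a root mean square difference of 0.13 on the log2 scale over the 7 arrays. Both had a small SD of 0.25, which keeps this measure low.

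Neutrophil markers shared their highest and lowest array with these genes. LysM+/cre array 3 had the highest mean level of the 8 markers and LysM+/+ array 2 the lowest, as in each neutrophil-attracting gene. The arrays between did not all go together. As mean deviations from the mean over the 7 arrays, LysM+/cre array 2 had 0.38 for the markers and -0.17 for the chemokine genes. LysM+/+ array 3 had -0.25 and 0.16. The calprotectin gene S100a8 read 6.35, 8.31, 9.87 and 6.87 on the LysM+/cre arrays, against 8.75, 4.74 and 6.99 on the LysM+/+ arrays. All 8 markers had a higher mean with cre (median difference 0.42), and 0 of them had an unadjusted p under 0.05, against 11.5% of all genes. For a list of 8, a count of 0 is near that share. Csf3r, the G-CSF receptor gene, was the brightest marker and differed by 0.24 ± 0.20 (SE, limma adjusted p = 0.652). The part of neutrophil RNA in the chemokine values was not tested.

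The interferon-induced genes pointed in opposite directions. Cxcl10, also known as IP-10, read 7.98, 8.70, 8.70 and 8.42 on the LysM+/cre arrays, against 9.32, 8.67 and 9.94 on the LysM+/+ arrays. LysM+/+ arrays 1 and 3 lay above all LysM+/cre arrays, while LysM+/+ array 2 fell among them. The mean was 1.81-fold lower with cre, a log2 difference of -0.86 ± 0.32 (SE, limma adjusted p = 0.415, unadjusted p = 0.0303), and it did not pass the test. The 95% interval, which takes no account of the number of genes tested, was -1.61 to -0.11. The difference was -0.54 without LysM+/+ array 3, -0.86 without LysM+/+ array 1 and -1.18 without LysM+/+ array 2.

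Cxcl9, also known as MIG, read 9.58, 7.74, 6.77 and 8.50 on the LysM+/cre arrays, against 7.34, 7.63 and 6.95 on the LysM+/+ arrays. LysM+/cre arrays 1, 4 and 2 lay above all LysM+/+ arrays, and LysM+/cre array 3 lay below them all. The mean was 1.79-fold higher with cre, a log2 difference of 0.84 ± 0.62 (SE, limma adjusted p = 0.622) with a 95% interval of -0.63 to 2.31. Within LysM+/cre the values spanned 2.81 on the log2 scale, against 0.68 within LysM+/+. Without LysM+/cre array 3 the difference was 1.30 (limma unadjusted p = 0.0362), and without LysM+/cre array 1 it was 0.36 (limma unadjusted p = 0.454).

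The pair therefore cancelled when averaged. Measured as deviations from each gene's own mean over the 7 arrays, Cxcl9 minus Cxcl10 was 2.63, 0.074, -0.90 and 1.11 on the LysM+/cre arrays, against -0.95, -0.011 and -1.96 on the LysM+/+ arrays. The genotypes overlapped because LysM+/cre array 3 lay within the LysM+/+ values. The means were 0.73 ± 1.51 (SD, n = 4) with cre and -0.97 ± 0.97 (SD, n = 3) without it, a difference of 1.70 that is given as a description, since the pair was singled out after its values were known. Cxcl9 and Cxcl10 had a root mean square difference of 1.40 over the arrays, against 0.13 for Cxcl2 and Cxcl5. This measure grows with the spread of the genes. The SD over the 7 arrays was 0.97 for Cxcl9 and 0.63 for Cxcl10, against 0.25 for both Cxcl2 and Cxcl5.

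Neutrophil-attracting and interferon-induced members as groups did not differ in how they moved with the genotype beyond the spread of the arrays. The mean deviation of Cxcl1, Cxcl2, Cxcl3 and Cxcl5 was -0.31, -0.17, 0.80 and 0.0082 on the LysM+/cre arrays, against 0.30, -0.79 and 0.16 on the LysM+/+ arrays. For Cxcl9 and Cxcl10 it was 0.48, -0.086, -0.57 and 0.16 on the LysM+/cre arrays, against 0.024, -0.15 and 0.14 on the LysM+/+ arrays. The first group thus differed by 0.19 and the second by -0.0088. The gap between the groups averaged 0.086 ± 0.91 (SD, n = 4) with cre and -0.11 ± 0.47 (SD, n = 3) without it, a difference of 0.20. This turned to -0.23 when LysM+/cre array 3 was left out and to -0.060 when LysM+/+ array 2 was, and it was 0.49 when LysM+/cre array 1 was. LysM+/cre array 3 had the highest value of the neutrophil-attracting group and the lowest of the interferon-induced group, and LysM+/cre array 1 the highest of the interferon-induced group.

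**Figure D2:**
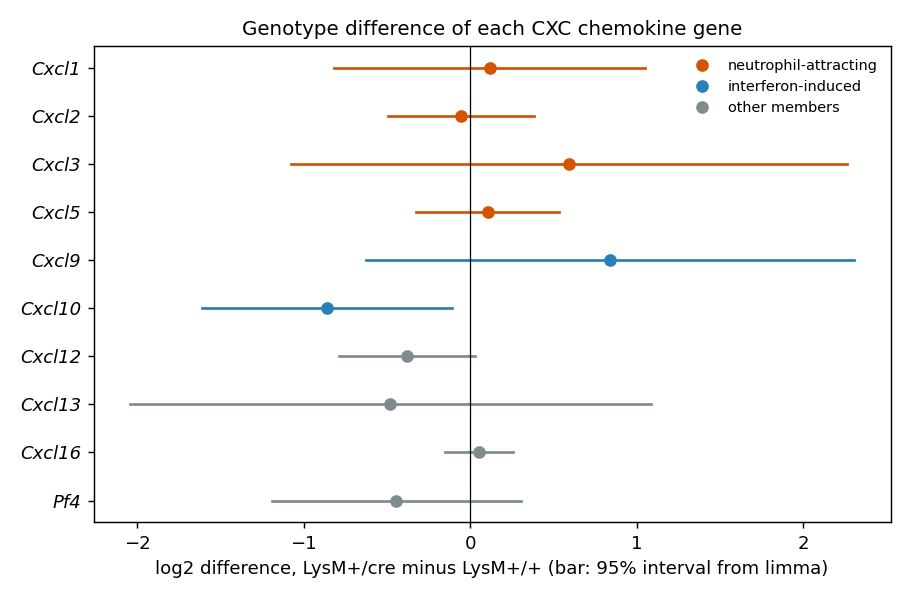
Log2 difference of each CXC chemokine gene, LysM+/cre minus LysM+/+, with its unadjusted 95% interval from limma, coloured by role. The interval of Cxcl10 is the only one of the 10 that leaves out 0, and Cxcl9 lies on the opposite side. Of the neutrophil-attracting genes, Cxcl1, Cxcl2 and Cxcl5 lie near 0 and Cxcl3 lies at 0.60 with a wide interval.

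Among the remaining members, Cxcl12 was lower with cre as a mean and did not pass the test. It read 6.45, 6.80, 6.75 and 6.80 on the LysM+/cre arrays, against 7.44, 6.75 and 7.04 on the LysM+/+ arrays. LysM+/+ array 2 lay among the LysM+/cre values, and LysM+/cre arrays 2 and 4 carried exactly the same deposited value. The difference was -0.38 ± 0.17 (SE, limma adjusted p = 0.455). It was -0.20 without LysM+/+ array 1 (limma unadjusted p = 0.210) and -0.54 without LysM+/+ array 2 (limma unadjusted p = 0.0148). Stromal cells are the main known source of Cxcl12, and the mean level of the 9 fibroblast markers was 7.02 to 7.63 on the LysM+/cre arrays and 7.65 to 7.99 on the LysM+/+ arrays. Of the 9 markers 7 had a lower mean with cre and 2 a higher one (median difference -0.53), with 4 lower at an unadjusted p under 0.05, against 4.93% of all genes, and 0 past the adjusted threshold. The brightest, which also had the largest difference of the 9, was Dcn, the proteoglycan decorin. It averaged 10.07 ± 0.34 (SD, n = 4) with cre and 11.44 ± 0.49 (SD, n = 3) without it. The part of stromal RNA in the Cxcl12 values was not tested.

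Cxcl13, which guides B cells and is made by stromal cells and some macrophages, ranged widely in both genotypes. It read 9.44, 11.63, 11.09 and 10.18 on the LysM+/cre arrays, against 11.88, 9.86 and 11.46 on the LysM+/+ arrays. Each genotype held high and low arrays, and the difference of -0.48 ± 0.66 (SE, limma adjusted p = 0.796) had a 95% interval of -2.04 to 1.09. It was -0.072 without LysM+/+ array 1, -0.096 without LysM+/cre array 1 and -1.08 without LysM+/+ array 2. B cell markers were dim, led by Cd79b at 6.85 ± 0.20 (SD, n = 4) with cre and 6.47 ± 0.086 (SD, n = 3) without it.

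Cxcl16, the membrane-bound ligand that also scavenges oxidised lipoprotein, was the steadiest member. It read 12.43, 12.32, 12.18 and 12.49 on the LysM+/cre arrays, against 12.33, 12.32 and 12.25 on the LysM+/+ arrays. All 7 arrays lay within 0.31 on the log2 scale. The difference was 0.053 ± 0.086 (SE, limma adjusted p = 0.830), and its 95% interval of -0.15 to 0.26 was the narrowest of the 10 members.

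Pf4 was bright on all arrays, at 10.71, 11.83, 12.05 and 11.26 on the LysM+/cre arrays, against 11.90, 12.08 and 11.74 on the LysM+/+ arrays. LysM+/cre arrays 1 and 4 lay below every LysM+/+ array and the other LysM+/cre arrays lay among them. The difference was -0.44 ± 0.31 (SE, limma adjusted p = 0.611), with a 95% interval of -1.19 to 0.30, and without LysM+/cre array 1 it was -0.19. Its neighbour Ppbp, which encodes another platelet chemokine, read 5.86, 7.98, 8.40 and 6.31 on the LysM+/cre arrays, against 7.06, 8.26 and 9.71 on the LysM+/+ arrays. LysM+/cre arrays 1 and 4 were the lowest for both genes. The platelet markers Gp9, Treml1 and Itga2b kept genotype means between 5.74 and 7.25, with a median difference of -0.00058 over the 5 measured markers. The part of platelet RNA in the Pf4 values was not tested.

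**Figure D3:**
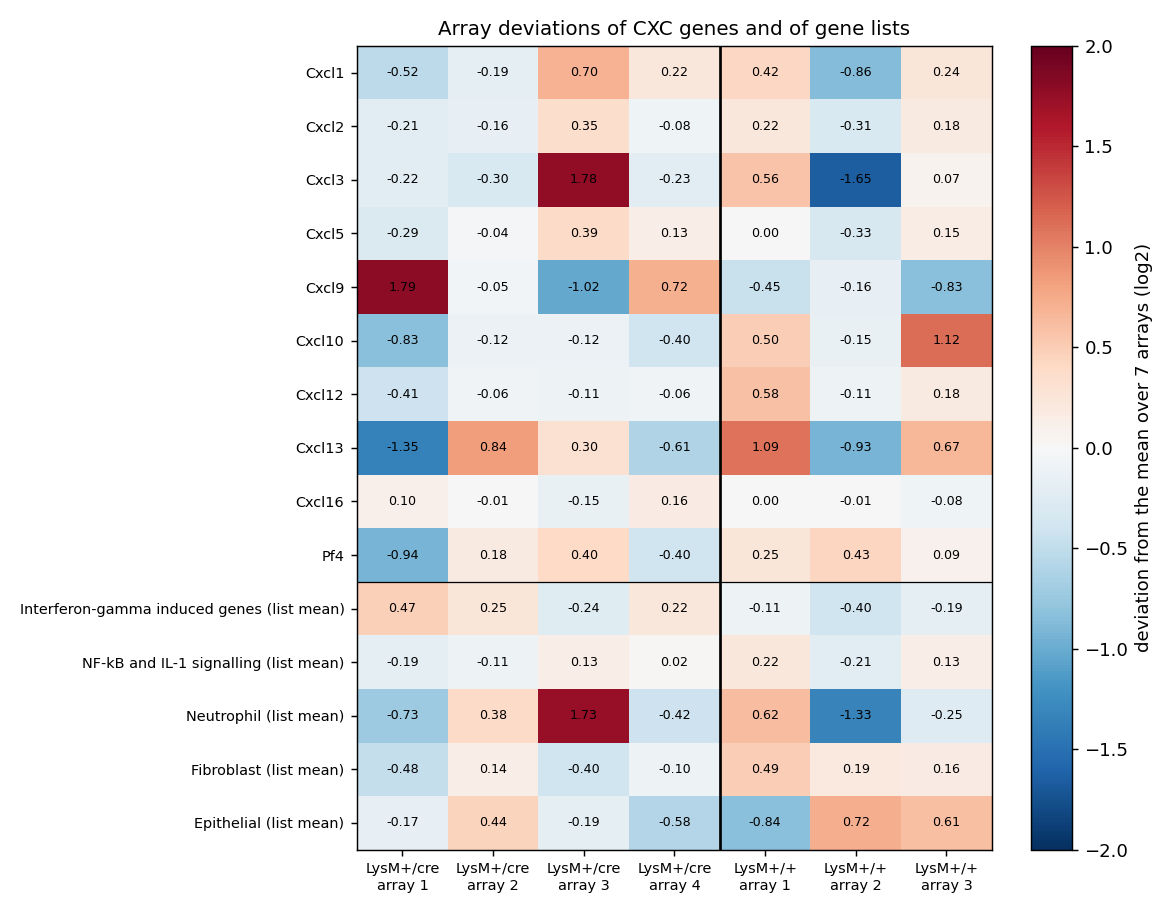
Deviation of each CXC gene, and of the mean of 5 gene lists, from its own mean over the 7 arrays, in log2 units, LysM+/cre arrays left of the line and LysM+/+ arrays right of it. The neutrophil-attracting genes and the neutrophil markers peak on LysM+/cre array 3 and are lowest on LysM+/+ array 2, while Cxcl9 peaks on LysM+/cre array 1 and Cxcl10 on LysM+/+ array 3.

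No receptor gene of these chemokines passed the test. Of 8 such genes, 0 passed the adjusted threshold, 3 had a higher mean with cre and 5 a lower one (median difference -0.022). Ackr3, a scavenging receptor for Cxcl12, read 5.66, 5.94, 6.05 and 6.16 on the LysM+/cre arrays, against 6.37, 6.19 and 6.33 on the LysM+/+ arrays. Its difference was -0.34 ± 0.12 (SE, limma adjusted p = 0.414). It was the single receptor of the 8 without overlap between the genotypes, against 8.79% of all genes, and the single one at an unadjusted p under 0.05, against 11.5%. Cxcr6, the receptor of Cxcl16, differed by 0.24 ± 0.12 (SE), and Ackr1, an endothelial decoy receptor, by -0.69 ± 0.35 (SE), where LysM+/+ array 3 stood at 5.57 and the other 6 arrays between 3.78 and 4.33.

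NF-kB and IL-1 signalling induces the neutrophil-attracting members, and the list of its genes used here held inhibitors as well as inducers. Of the 18 genes, 0 passed the adjusted threshold, with 7 higher and 11 lower means (median difference -0.096). An unadjusted p under 0.05 was found for 2 of the 18, both lower. Over all genes 4.93% were lower at that threshold and 11.5% passed it in either direction. Nfkbiz, an atypical IkB protein needed for a subset of secondary NF-kB targets, read 10.25, 10.49, 10.55 and 10.68 on the LysM+/cre arrays, against 10.94, 10.93 and 11.10 on the LysM+/+ arrays. The genotypes did not overlap, and the difference was -0.50 ± 0.11 (SE, limma adjusted p = 0.333). Tnfaip3, the deubiquitinase A20 that limits NF-kB, differed by -0.49 ± 0.20 (SE, limma adjusted p = 0.430), and Relb by -0.18 ± 0.095 (SE). Nfkbiz and Relb were the 2 of the 18 without overlap between the genotypes, against 8.79% of all genes.

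The genes around interferon pointed both ways, as Cxcl9 and Cxcl10 did. Of 15 interferon signalling genes, 10 had higher and 5 lower means (median difference 0.13), and 0 passed the adjusted threshold. At an unadjusted p under 0.05, 3 of the 15 were higher and 3 lower, against 6.56% and 4.93% of all genes. The receptor subunit genes Ifngr2 and Ifnar2 differed by 0.36 ± 0.11 (SE, limma adjusted p = 0.395) and 0.38 ± 0.14 (SE, limma adjusted p = 0.416). Ifnb1, which encodes interferon beta, read 7.45, 7.61, 8.14 and 8.14 on the LysM+/cre arrays, against 9.10, 8.14 and 10.78 on the LysM+/+ arrays. LysM+/+ array 3 was highest, LysM+/+ array 1 next and LysM+/cre array 1 lowest, as for Cxcl10. The 3 arrays at 8.14 carried exactly the same deposited value. The difference was -1.50 ± 0.58 (SE, limma adjusted p = 0.416).

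Interferon-gamma induced genes other than the chemokines had 11 of 14 higher means with cre (median difference 0.43) and 0 past the adjusted threshold. Of the 14, 3 were higher at an unadjusted p under 0.05, against 6.56% of all genes. Tap1, the peptide transporter of MHC class I, read 10.56, 10.18, 9.53 and 10.07 on the LysM+/cre arrays, against 9.45, 9.35 and 9.57 on the LysM+/+ arrays. As for Cxcl9, LysM+/cre arrays 1, 2 and 4 were the highest and LysM+/cre array 3 lay apart from them. The mean level of the 5 genes of the sort gate was highest on the same arrays. It was 12.08, 11.97, 11.56 and 12.02 on the LysM+/cre arrays, against 11.63, 11.54 and 11.56 on the LysM+/+ arrays. Not every gate gene followed this mean, since Itgam was highest on LysM+/cre array 3, at 12.29. Of the 5 genes, 3 had a higher mean with cre and 2 a lower one, H2-Aa (-0.058) and H2-Ab1 (-0.044). At an unadjusted p under 0.05, 2 of the 5 gate genes were higher, against 6.56% of all genes, and 0 passed the adjusted threshold. The part of the sorted cells' make-up in Cxcl9 and Tap1 was not tested. For Tap1 the difference was 0.63 ± 0.22 (SE, limma adjusted p = 0.412). The immunoproteasome gene Psmb8 differed by 0.62 ± 0.25 (SE) and the guanylate binding protein gene Gbp4 by 0.72 ± 0.30 (SE).

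**Figure D4:**
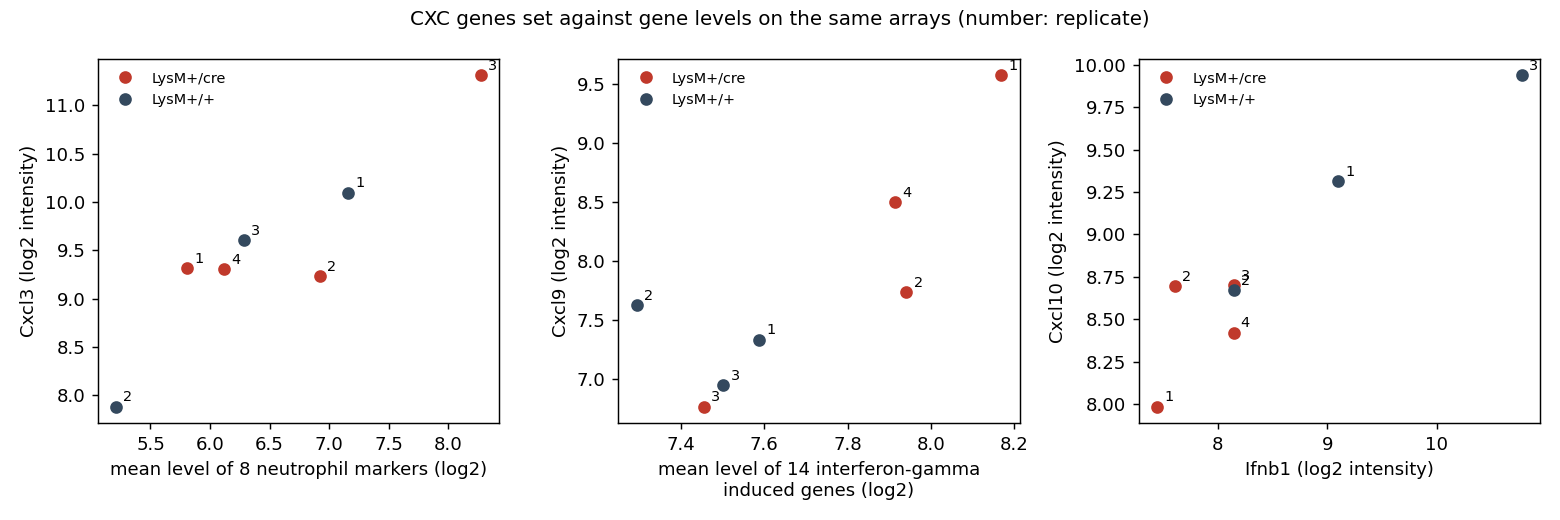
Cxcl3 against the mean level of 8 neutrophil markers, Cxcl9 against that of 14 interferon-gamma induced genes, and Cxcl10 against Ifnb1, all in log2 intensity, 1 point per array with its replicate number. LysM+/cre array 3 has the highest and LysM+/+ array 2 the lowest value on both axes of the first panel, and LysM+/+ array 3 the highest and LysM+/cre array 1 the lowest value on both axes of the last. The panels describe 7 arrays that share each array's cell make-up.

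No other ligand or processing enzyme passed the test. Of 5 other CXC ligands, 1 had a higher mean and 4 a lower one. A count of 0 had an unadjusted p under 0.05, against 11.5% of all genes, which for a list of 5 is near that share. Cxcl14, an epithelial and stromal chemokine, differed by 0.38 ± 0.23 (SE), Ppbp by -1.21 ± 0.83 (SE) and the dim Cxcl15 by -0.12 ± 0.072 (SE). Of 6 protease genes whose products cut or shed chemokines, 5 had higher means and 1, Mmp9, was higher at an unadjusted p under 0.05, against 6.56% of all genes. The mean level of the 6 genes was 8.88 to 9.33 on the LysM+/cre arrays and 8.14 to 8.68 on the LysM+/+ arrays. These means did not overlap, but taken singly 0 of the 6 genes were without overlap, against 8.79% of all genes. The median difference of the 6 was 0.24, and the largest, that of Mmp8, was 1.79. Mmp9, a gelatinase abundant in neutrophils, read 8.69, 9.71, 9.77 and 9.45 on the LysM+/cre arrays, against 9.07, 7.73 and 7.36 on the LysM+/+ arrays. The LysM+/+ array 1 value lay among the LysM+/cre ones, and the difference was 1.35 ± 0.45 (SE, limma adjusted p = 0.406). Mmp8, neutrophil collagenase, differed by 1.79 ± 0.92 (SE), and Adam10, a sheddase of Cxcl16, by 0.26 ± 0.18 (SE).

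Genes with the most similar array pattern were found by the smallest root mean square difference of deviations over the 7 arrays, among genes brighter than the median gene. For Cxcl10 these were Ints6 (0.13), Slc43a3 (0.14) and Peli1 (0.16), on the log2 scale, against an SD of 0.63 for Cxcl10 itself. For Cxcl2 they were Gch1 (0.057), Tbk1 (0.071) and Ascc1 (0.085), against an SD of 0.25. For Cxcl1 they were Nod1 (0.15), Ikbke (0.15) and Rnd1 (0.16), against 0.55. Cxcl9 had Cish (0.25), Naaa (0.29) and Tlr12 (0.33), against 0.97, and Cxcl13 had Nid1 (0.37), Cacna1d (0.41) and Mmp3 (0.43), against 0.96. Pf4 had Ecm1 (0.15), Ubxn7 (0.17) and Snx16 (0.18), against 0.50. Over so few arrays many of the 22180 genes can resemble a member closely, so these are given as descriptions.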

How the data were processed

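Each of the 7 RNA samples was hybridised to 1 array, per the labels. The authors deposited log2 intensities, 1 value for each probe set and array, with nearly equal medians on all arrays. The series' design text names Affymetrix Expression Console for this step, and the submitters' processing notes add Transcriptome Analysis Console. No version or setting of either is given in the sources used here. A shift shared by all genes would not show after scaling between arrays.

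The platform annotation gave 23521 of 41345 probe sets exactly 1 symbol, 1814 several and the other 16010 none. Keeping the brightest probe set of each gene left 22180 genes. RefSeq identifiers matched for all but 193 of the named probe sets, with 0 symbols changed.

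The fit used limma 3.58.1 under R 4.3.3 (lmFit, eBayes) on all genes, two-sided, without covariates or a filter. On 5 simulated data sets of this comparison, each of 22180 genes, the code found 75.8% of changes of 2-fold and 94.6% of changes of 4-fold. These changes were put into genes drawn at random from all genes. Most members varied more between arrays than most genes, so these shares do not hold for the members. Lists are described by counts and medians, with no set test. Named genes are all members, up to 3 genes of smallest p per pathway list, up to 3 of highest mean per marker list, and for 6 members the 3 genes of nearest pattern, leaving out predicted genes, microRNAs and receptor segments. The members and lists were chosen with earlier results of these data known. Other settings tried were 2 scalings, a dim filter, the mean of all probe sets, 3 variance models, a replicate block and the loss of each array in turn. Figures were made in matplotlib 3.10.9.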

Additional observations from a re-analysis of the deposited data

Results flagged for a closer look

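Among the 4 LysM+/cre arrays, a value far from the others was found for 2 of the 10 members, and chance flags about 1 in 20 such groups. Cxcl3 stood at 11.31 on LysM+/cre array 3, where the nearest of the other 3 read 9.32, and this gap took up 0.960 of the group's range, more than Dixon's test allows. Neutrophil markers were also highest on that array, and their part in the Cxcl3 value was not tested. Cxcl12 stood at 6.45 on LysM+/cre array 1, below the nearest value of 6.75, a gap of 0.882 of the range. Its LysM+/cre arrays 2 and 4 carried exactly the same value, and the rate of 1 in 20 takes no account of repeated values. Groups of 3 arrays were not examined this way.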

How the results depend on the processing

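Over 15 alternatives (14 for Cxcl5, which the filter on dim probe sets removed) no member passed an adjusted p of 0.05. Cxcl9, Cxcl10, Cxcl12, Cxcl13, Cxcl16 and Pf4 kept the direction of their difference in all 15. Not all 15 could change it. The dim filter, the mean of all probe sets and the variance models without array weights left the differences of these members as they were. The replicate block gave the same differences as leaving out LysM+/cre array 4. The 15 are therefore not separate checks of direction. The adjusted p of Cxcl10 ranged from 0.279 to 0.621 and its unadjusted p lay under 0.05 in 9 of the 15. Leaving out 1 array turned the sign of all 4 neutrophil-attracting genes, with ranges of -0.28 to 0.36 for Cxcl1, -0.23 to 0.041 for Cxcl2, -0.060 to 1.05 for Cxcl3 and -0.027 to 0.22 for Cxcl5. Members at an unadjusted p under 0.05 numbered 0 to 2 on the lower side and 0 to 1 on the higher side when 1 array was left out, and all genes at that threshold 1693 to 2779, the lowest count being without LysM+/cre array 1. Without moderation of the variance 0 members were lower at that threshold, and 2 genes on the array, neither a member, passed an adjusted p of 0.05, against 0 with moderation. The mean difference of the neutrophil-attracting group ranged from -0.15 to 0.40 and that of the interferon-induced group from -0.17 to 0.18, within 1 SD of the values with all arrays, and the gap between them, 0.20 with all arrays, from -0.23 to 0.49. The dim filter gave no value for the groups because it removed Cxcl5.

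The replicate numbers 1 to 3 are shared by the genotypes, but the labels do not say that they pair samples. Same-numbered arrays deviated together at correlations of -0.11, 0.12 and 0.10, and only number 2 correlated best with its own number. With the replicate number as a block, 0 members were lower at an unadjusted p under 0.05 and 2139 genes passed it. Cxcl10 differed by -0.85 (limma unadjusted p = 0.0627). Only LysM+/cre has a number 4, so the block takes that array out of the comparison. The differences were those found without LysM+/cre array 4, and the change in p cannot be put to pairing.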

Other observations

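Many deposited values repeat exactly across arrays. Of the 22180 genes, 11930 (53.8%) carried the same value on at least 2 arrays, and 6661 on at least 3. Among the members this held for Cxcl12 alone, where LysM+/cre arrays 2 and 4 shared 6.80. No source names the step that produced the repeats.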
